A study of Mus musculus with 8 samples.

Results

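Cycling T cells were defined here as tumour-infiltrating cells that carried a rearranged T cell receptor and held transcripts of the cell division genes Mki67 and Top2a. A cell belonged when it had at least 200 detected genes and at most 10% mitochondrial UMIs (unique molecular identifiers, each standing for 1 captured RNA molecule), at least 1 UMI of Mki67, at least 1 UMI of Top2a, 0 UMIs of the macrophage receptor gene Csf1r, 0 UMIs of the B cell gene Cd79a, and a T cell receptor beta (TRB) contig under its barcode in the same mouse. The gate took 252 of 48214 cells that passed the quality filters, or 0.523%, and these 252 stood among 6350 T cells that met the TRB, Csf1r and Cd79a conditions. Knockout mouse 1 gave 42 cycling T cells and knockout mouse 2 gave 59, while control mice 1 and 2 gave 60 and 91. The cells were thus chosen by measured values, the UMIs of Mki67, Top2a, Csf1r and Cd79a, and these are given only as a description. The T cell label held: Cd3e, which encodes a signalling chain of the T cell receptor complex and was not part of the gate, had a UMI in 42 of 42, 59 of 59, 59 of 60 and 91 of 91 of these cells.

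The cells came from liver tumours that formed after colorectal cancer cells of the Venus-AKTPM/LOH type were injected into the spleen, and tumours were taken on day 30. Knockout mice (Vav1CreTet2KO, 2 mice) lost Tet2 where the Vav1 promoter drives Cre, which is across blood lineages and not in T cells alone. Control mice (Tet2fl/fl, 2 mice) carried floxed Tet2 alleles as well, so both genotypes bear the floxed locus. Live CD45+ leukocytes were sorted with an antibody to CD45.2, and each mouse gave a 5' gene expression library and a T cell receptor library, 8 libraries in all. Age and sex were not given in the sources used here.

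A dividing cell copies its DNA in S phase with enzymes and replication factors such as the Mcm helicase, Pcna and Rrm2, and then builds the mitotic apparatus in G2 and M phases with cyclins, kinesins and Top2a. Mki67 encodes Ki-67, the standard marker of cells in cycle. When a T cell meets its antigen it divides repeatedly, so its daughters share 1 receptor sequence and form a clone. In tumours, division of CD8 T cells is often found in clones that are already expanded, and regulatory CD4 T cells, which carry the transcription factor Foxp3, are known to divide as well.

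The receptor sequences below belong to clones that were among the 3 with most cycling cells of their mouse, and are shown because a clone is the unit in which division shows over time. Most cycling cells were the only cycling cell of their clone. Each sequence gives the nucleotides of the CDR3 (the antigen-contacting loop) of the TRB chain, 5' to 3', with bases that match the germline V or J segment in lower case and the bases that match neither in capitals. The segments lie on chromosome 6 (GRCm39), for instance TRBV13-3 at chr6:41107081-41107519 and TRBJ2-1 at chr6:41519688-41519737, both on the plus strand.
control mouse 2 clone 1: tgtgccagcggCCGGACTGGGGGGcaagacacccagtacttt
control mouse 2 clone 2: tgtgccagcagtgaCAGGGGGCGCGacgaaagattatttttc
control mouse 1 clone 1: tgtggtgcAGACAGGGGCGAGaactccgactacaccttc
control mouse 1 clone 2: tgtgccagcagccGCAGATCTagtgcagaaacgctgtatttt
knockout mouse 2 clone 1: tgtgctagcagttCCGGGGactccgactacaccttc
knockout mouse 2 clone 2: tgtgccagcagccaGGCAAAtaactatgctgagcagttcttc
knockout mouse 1 clone 1: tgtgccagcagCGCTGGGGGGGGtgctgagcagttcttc
The largest was control mouse 2 clone 1 (TRBV12-2+TRBV13-2 with TRBJ2-5), where 19 of 189 T cells cycled, a share of 10.1% (95% exact binomial interval 6.16 to 15.3%), and all 19 were CD8 T cells. Control mouse 2 clone 2 (TRBV13-3 with TRBJ1-4) had 16 cycling cells among 96 (16.7%, 9.84 to 25.6%), 13 of them CD4 T cells and 3 with no lineage UMI. Control mouse 1 clone 1 (TRBV20 with TRBJ1-2, CD8) had 4 of 7 cells in cycle, and its clone 2 (TRBV2 with TRBJ2-3, CD4) had 3 of 11. Knockout mouse 2 clone 1 (TRBV29 with TRBJ1-2) had 3 of 7 (9.90 to 81.6%) and its clone 2 (TRBV2 with TRBJ2-1) 3 of 5 (14.7 to 94.7%). Its clone 3 (TRBV12-2+TRBV13-2 with TRBJ2-1), whose sequence is not shown, had 3 of 4 (19.4 to 99.4%). In each of these clones of knockout mouse 2, 1 of the 3 cycling cells had UMIs of both the CD4 and the CD8 lineage. Knockout mouse 1 clone 1 (TRBV13-3 with TRBJ2-1) was a clone of 64 T cells, and 2 of them cycled (3.12%, 0.381 to 10.8%). No cycling clone was found among the cycling cells of another mouse (0 shared), though each of the other 3 mice had 1 cycling clone of control mouse 1 among its T cells. In addition 0 cell barcodes of cycling cells were shared between libraries, although each pair of libraries shared 186 to 221 barcodes of cells passing the filters.

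Promoters of 2 cell cycle genes are shown because all 34 measured G2/M genes were higher in cycling CD8 T cells in the comparison with non-cycling cells that follows. Each run is the 250 bases before the RefSeq start site (GRCm38.p6), 5' to 3' on the gene's strand, with CCAAT boxes and the sequence TTTGAA, or their reverse complements ATTGG and TTCAAA, in capitals.
Mki67 promoter: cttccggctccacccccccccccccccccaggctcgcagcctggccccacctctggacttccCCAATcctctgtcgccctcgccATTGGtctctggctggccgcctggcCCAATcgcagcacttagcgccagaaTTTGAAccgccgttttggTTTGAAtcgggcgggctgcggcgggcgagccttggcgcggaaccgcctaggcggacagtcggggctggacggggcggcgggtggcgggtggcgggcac
Ccnb2 promoter: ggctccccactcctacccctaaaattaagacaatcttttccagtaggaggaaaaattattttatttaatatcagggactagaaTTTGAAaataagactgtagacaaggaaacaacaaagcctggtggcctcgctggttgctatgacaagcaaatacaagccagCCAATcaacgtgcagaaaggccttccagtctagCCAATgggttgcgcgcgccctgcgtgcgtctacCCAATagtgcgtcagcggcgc
The Mki67 window (chr7:135716380-135716629, minus strand) held 3 CCAAT boxes and 2 TTTGAA sequences, and the window of the mitotic cyclin gene Ccnb2 (chr9:70421555-70421804, minus strand) held 3 and 1. Counting both strands, and with no overlap between the motifs in these windows, CCAAT was present before 25 of 30 genes of the G2/M list with a RefSeq promoter (83.3%), 13 of 27 genes of the G1/S list (48.1%), 41.0% of 7184 genes tested and 37.5% of all 27025 genes. TTTGAA was present before 9 of 30 G2/M genes (30.0%), 3 of 27 G1/S genes (11.1%), 13.0% of tested genes and 18.3% of all genes. GGCGGGAA, a form of the E2F motif, was found before 3 of the 27 G1/S genes (11.1%), 0 of the 30 G2/M genes, 4.58% of tested genes and 2.13% of all. A match to these letters is a description of the window and not a bound site.

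Cells in the gate were deeper than other T cells. The gate needs a captured UMI of both genes, which deeper cells meet more often, so these totals are partly set by the selection and do not measure RNA content. The median UMI count of cycling cells was 15954.5, 18675, 10572 and 8173 in knockout mouse 1, knockout mouse 2, control mouse 1 and control mouse 2 (the order of all such series of values), against 4337, 4201, 3778.5 and 3282 in T cells with neither gate gene. After equalising every cell to 2000 UMIs the median number of genes was 1038, 1051, 1052 and 1044 in cycling cells and 960, 943, 912 and 978 in non-cycling cells. The median cycling cell had 6, 5, 4 and 3 UMIs of Mki67 and 6.5, 13, 6 and 6 of Top2a, so knockout cells were both deeper and richer in these UMIs. At the edge of the gate, 9, 4, 6 and 14 cycling cells had exactly 1 UMI of each gene, and 199, 175, 125 and 184 further T cells had a UMI of only 1 of these genes and were left out of both classes. Doublet calls by Scrublet marked 1, 0, 1 and 1 cycling cells. Of cycling cells 4.76, 15.3, 5.0 and 1.10% had 2 TRB chains, against 2.45, 3.94, 2.52 and 3.06% of non-cycling ones. UMIs of Cd4 together with Cd8a or Cd8b1 were seen in 4.76, 10.2, 0 and 2.20% of cycling and 1.03, 0.883, 0.875 and 0.478% of non-cycling cells. Knockout mouse 2 was the highest of the cycling cells in both, and deeper cells meet such UMIs more often.

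Total UMIs per library were between 57190926 and 91789597, and the summed cycling T cells of a mouse held 680454 to 1219087. Tet2 itself was checked first. Its sums in cycling T cells were 22, 26, 17 and 28 UMIs, or 31.3, 22.1, 25.5 and 32.2 CPM (a gene's count as a rate of all UMIs in the sum), 26.7 ± 6.51 (SD, n = 2) against 28.9 ± 4.72 in controls. The groups overlapped, and the log2 change was -0.16 ± 0.35 (SE, adjusted p = 0.974, edgeR quasi-likelihood test). The labels do not name the deleted exons, so a UMI elsewhere in the transcript checks nothing about the deletion.

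The first comparison asked how often T cells cycled in each genotype. The share of T cells in cycle was 2.10% (95% exact binomial interval 1.52 to 2.83) in knockout mouse 1 and 3.05% (2.33 to 3.92) in knockout mouse 2, against 5.46% (4.19 to 6.97) in control mouse 1 and 6.88% (5.58 to 8.38) in control mouse 2. Both knockout mice lay below both control mice, with means of 2.58 ± 0.670% and 6.17 ± 1.01% (SD, n = 2) and a ratio of 0.418. With 2 mice against 2 the exact two-sided permutation test cannot go below p = 0.33, which is the value it gave. Intervals cover counting error only.

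CD8 T cells (a UMI of Cd8a or Cd8b1, none of Cd4) cycled at 2.31, 1.71, 5.29 and 6.35%, that is 28 of 1213, 18 of 1054, 29 of 548 and 38 of 598 cells. The means were 2.01 ± 0.425% in knockout and 5.82 ± 0.751% in control mice, a ratio of 0.345. CD4 T cells (a UMI of Cd4, none of the CD8 genes) cycled at 1.94, 5.54, 8.5 and 11.2%, with a ratio of means of 0.380. T cells with no UMI of either lineage gave 1.25, 3.2, 4.14 and 3.82%. In each of these classes the genotypes did not overlap (exact permutation p = 0.33, the smallest possible). UMIs of Cd8a or Cd8b1 were seen in 0.866, 1.05, 0 and 0.462% of Cd79a-positive cells without a receptor, and UMIs of Cd4 in 0.488, 0.525, 0.534 and 0.154%, which is the background of the lineage calls at a median depth of 2278 to 3125 UMIs.

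**Figure D1:**
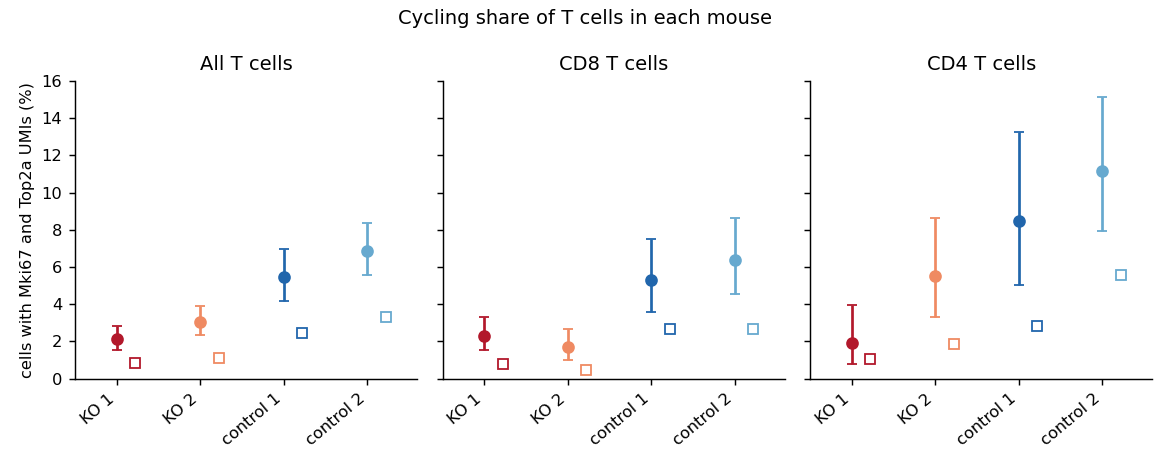
Share of T cells, CD8 T cells and CD4 T cells with a UMI of both Mki67 and Top2a (y axis, percent) in each of the 4 mice (KO, knockout). Filled circles show all UMIs with 95% exact binomial intervals, and open squares show the share expected when every cell is thinned to 2000 UMIs; the knockout mice stand below the control mice in all 3 panels, for all T cells at 2.10 and 3.05% against 5.46 and 6.88%.

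Because the gate needs UMIs, the shares were repeated at equal depth. With every cell thinned to 2000 UMIs the ratio of knockout to control was 0.33 for all T cells, 0.237 for CD8 T cells and 0.349 for CD4 T cells. At 4000 UMIs it was 0.286, 0.258 and 0.311, and the genotypes did not overlap at either depth. Shallower cells were left out, 50, 27, 73 and 153 T cells at 2000 UMIs and 761, 789, 561 and 776 at 4000 UMIs. Of the latter only 1, 1, 3 and 5 were cycling. The T cells kept at 4000 UMIs had shares of 3.32, 5.07, 10.6 and 15.8% before thinning, so those ratios describe another set of cells. In CD8 T cells the thinned shares were 0.807 and 0.460% against 2.66 and 2.69%. The same 2 genes in other leukocytes did not all follow this order. Csf1r-positive cells without a receptor had both genes in 3.48 and 2.82% of knockout cells and 1.19 and 2.40% of control cells, Cd79a-positive cells in 0.377 and 0.505% against 1.47 and 1.39%, and neutrophils in 0 of 430 cells and 0.515% against 0.353 and 1.35%.

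The lineage make-up of the cycling cells was next compared with that of the non-cycling T cells of the same mouse. In all, 113 cycling cells were CD8, 78 CD4, 10 had UMIs of both lineages and 51 had neither. Of the cells with 1 lineage, CD8 T cells made up 80.0, 50.0, 63.0 and 51.4% of cycling and 77.3, 77.2, 75.1 and 66.6% of non-cycling cells. The CD8 share was lower among cycling cells in 3 of 4 mice, by 12.9 percentage points on average, with an exact paired permutation p = 0.25, where 4 pairs cannot go below 0.125. Knockout mouse 1 was the exception, with a difference of 2.75 points the other way.

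Foxp3-positive cells were common among the CD4 T cells in cycle. Foxp3, the defining transcription factor of regulatory T cells, had a UMI in 1 of 7, 12 of 18, 11 of 17 and 11 of 36 cycling CD4 T cells (14.3, 66.7, 64.7 and 30.6%) and in 5.11, 9.42, 17.8 and 26.1% of non-cycling ones. The cycling share was higher in 4 of 4 mice (exact paired permutation p = 0.125, the smallest possible). The cycling cells were deeper, at a median of 9381.5 to 22238 UMIs against 3181.5 to 3912, and at 2000 UMIs a cell the shares were 7.56, 23.5, 36.9 and 10.9% against 3.05, 5.13, 14.1 and 19.7%. At that depth 3 of 4 mice were higher in cycling cells (p = 0.375, exact) and control mouse 2 was lower. In Cd79a-positive cells, which should lack the gene, Foxp3 had a UMI in 0.222, 0.175, 0.401 and 0% of cells, the last being 0 of 649.

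Division and clone size were compared within the CD8 T cells of each mouse, since the receptor sequence was no part of the gate beyond its presence. CD8 T cells of expanded clones (at least 1 other T cell of the mouse with the same clone) cycled at 2.43% (18 of 741) and 0.997% (6 of 602) in knockout mice 1 and 2, and at 13.4% (16 of 119) and 9.22% (32 of 347) in control mice 1 and 2. CD8 T cells found as the only cell of their clone cycled at 2.12% (10 of 472), 2.65% (12 of 452), 3.03% (13 of 429) and 2.39% (6 of 251). The genotypes were therefore apart in expanded clones, at 1.71 ± 1.01% against 11.3 ± 2.99% (exact permutation p = 0.33, the smallest possible), and overlapped in single-cell clones, at 2.39 ± 0.379% against 2.71 ± 0.452% (exact p = 0.67). The expanded minus single difference was 0.310 and -1.66 points in knockout mice and 10.4 and 6.83 points in control mice, -0.674 ± 1.39 against 8.62 ± 2.53, again with exact permutation p = 0.33. Over all 4 mice the difference averaged 3.97 ± 5.62 points (exact paired permutation p = 0.375). The mice had 1996, 1933, 1099 and 1322 T cells, and a clone is more readily counted as expanded where more cells were taken. The classes were not equalised for cell number.

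The CD8 differences between the clone classes were also computed without the largest clones and at equal depth. Without the clone with most cycling cells in each mouse the differences were 0.234, -1.98, 7.68 and 5.84 points, and at 2000 UMIs a cell they were -0.0711, -0.212, 6.12 and 3.01 points. The overlap of single-cell CD8 clones did depend on depth: at 2000 UMIs a cell their shares were 0.850 and 0.581% in knockout and 1.36 and 0.942% in control mice, which did not overlap, and nor did those without cells of both lineages or with 2 TRB chains (2.38 and 2.12 against 2.93 and 2.48%). In CD4 T cells the shares of both clone classes were lower in knockout mice, at 2.05 and 7.02% against 12.5 and 11.2% in expanded clones, and at 1.81 and 4.74% against 6.62 and 11.2% in single-cell clones. The CD4 difference between the classes was 0.244, 2.28, 5.88 and 0.0156 points, higher in expanded clones in 4 of 4 mice (exact paired permutation p = 0.125). Without the clones of at least 10 cycling cells the expanded CD4 share of control mouse 2 was 4.29% in place of 11.2%, which lay between the knockout mice, and the difference in that mouse was -6.89 points. At 2000 UMIs a cell the CD4 difference of knockout mouse 2 was -0.247 points, so the direction held in 3 of 4 mice there.

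**Figure D2:**
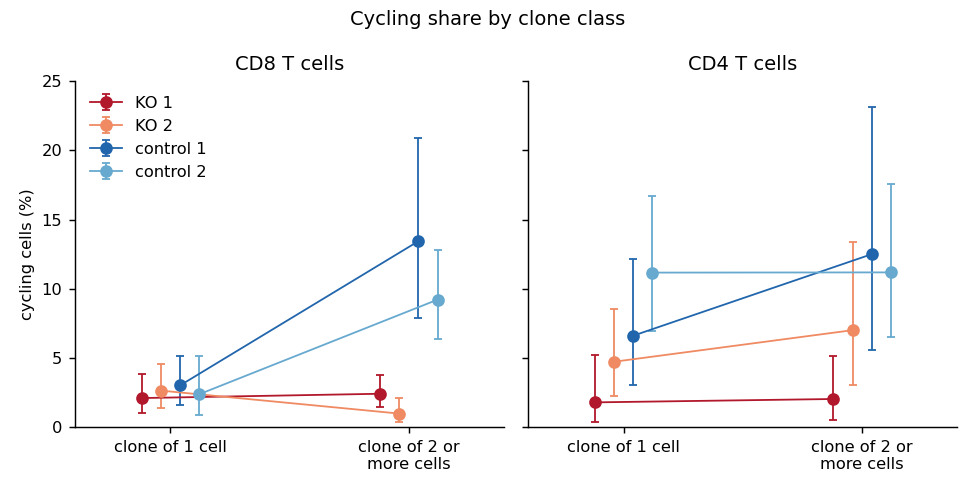
Share of cells in cycle (y axis, percent) among T cells that were the only cell of their clone and among T cells of clones with 2 or more cells, for CD8 (left) and CD4 (right) T cells; each line is a mouse and bars are 95% exact binomial intervals. In CD8 T cells the lines of control mice rise from 3.03 to 13.4% and from 2.39 to 9.22%, and those of knockout mice end at 2.43 and 0.997%.

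The cycling cells were spread over 36, 51, 52 and 56 clones. Clones with at least 2 cycling cells held 12, 13, 13 and 39 of them (28.6, 22, 21.7 and 42.9%), and the largest clone had 2, 3, 4 and 19. Drawn down to 42 cells in each mouse, the expected number of clones was 36.0, 37.5, 37.6 and 27.4 for cycling and 38.8, 40.4, 41.6 and 35.7 for non-cycling T cells, so cycling cells held fewer clones per cell in 4 of 4 mice. The 4.24 more clones in knockout than in control mice rested on control mouse 2: without it the difference was -0.849. Cells with the invariant alpha chain of natural killer T cells made up 0, 5, 3 and 1 of the cycling cells.

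**Figure D3:**
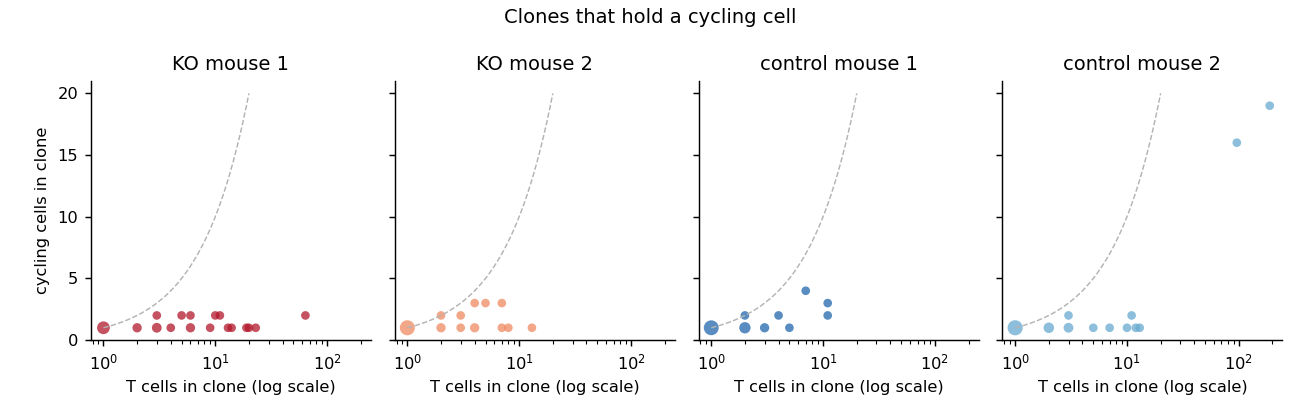
Each circle is a group of clones with the same numbers of T cells (x axis, log scale) and cycling cells (y axis) in a mouse, with its area growing with the number of clones; the dashed line marks clones in which every cell cycled. Only control mouse 2 had clones with more than 4 cycling cells, at 19 of 189 and 16 of 96 cells.

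Transcripts that went with division were measured in CD8 T cells by summing the UMIs of cycling and of non-cycling cells of each mouse and testing 9063 genes with edgeR and the mouse as a block. Mki67, Top2a, Csf1r and Cd79a were left out. In this test 1251 genes rose in cycling cells, 13.8% of those tested, and 1041 fell, 11.5%. The median change over all genes was -0.07 on the log2 scale. Since cycling cells were deeper, the test was repeated with only those non-cycling cells that reached the lower quartile of the cycling cells' UMIs. This setting, called matched depth below, sets only a floor, so the kept non-cycling cells may still be shallower than the cycling ones. In it 562 of 6077 genes rose and 510 fell, and 888 of the 2292 calls were called again in the same direction. Genes of the cell cycle came with the gate, so they are a description of the chosen cells. All 34 measured G2/M genes were higher, with a median log2 change of 5.99, and 35 of 36 G1/S genes passed the threshold upward with a median of 2.42. Plk1, a mitotic kinase, was at 114, 114, 169 and 131 CPM in cycling cells and at most 0.391 CPM in the others. Ccna2, a cyclin of S and G2 phases, was at 264 ± 18.8 CPM (SD, n = 4 mice) against 0.851 ± 1.15. The kinesin gene Kif11 and the kinetochore gene Cenpf were at 155 ± 23.3 and 176 ± 33.5 CPM against 1.46 ± 0.451 and 1.51 ± 0.460. The S phase genes Rrm2 (nucleotide synthesis), Mcm5 (replicative helicase) and Pcna (polymerase clamp) were at 350 ± 41.0, 185 ± 13.7 and 240 ± 17.3 CPM against 7.93 ± 2.84, 28.1 ± 10.6 and 72.7 ± 14.4.

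Outside the 2 phase lists, 13.1% of genes rose and 11.6% fell, and the gene groups below are read against these shares. The lists of G1 cyclins and of cycle brakes hold cell cycle genes too. Their changes may therefore also come with the gate, and are a description of the chosen cells. Of 11 G1 cyclins and growth drivers 6 rose and 2 fell. Cdk2, which drives entry into S phase, rose from 9.67 ± 4.45 to 42.7 ± 10.1 CPM (log2 change 2.18 ± 0.27, edgeR adjusted p = 1.39e-05), and Cdk4 and the E2F family member E2f2 rose by 0.94 and 3.18. Ccnd2, the D-type cyclin of the G1 phase, fell by 1.01, from 240 ± 37.3 to 118 ± 29.5 CPM, and Myc fell by 0.78. Of 17 genes that restrain the cycle 8 fell and 3 rose. Btg1, an antiproliferative gene, was at 302, 163, 427 and 278 CPM in cycling cells and at 1167, 777, 1205 and 742 CPM in non-cycling ones, a fall of 1.77 ± 0.14 (adjusted p = 1.41e-07) with no overlap. Foxp1 and Klf2, which hold T cells in quiescence, fell by 1.31 and 1.17. Cdkn2c, an inhibitor of Cdk4 and Cdk6, rose by 2.59, and Cdkn1b fell by 0.73. At matched depth 7 of the 17 brake genes fell and 4 rose, Btg1 by -1.11, while Cdkn1b was not called (adjusted p = 0.417).

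Memory and quiescence genes were mostly lower. Of 17 stem-like and memory genes 9 fell and 1 rose, with a median of -1.34. Il7r, the receptor chain for the survival cytokine interleukin 7, was at 120, 145, 14.5 and 32.0 CPM in cycling cells and at 740, 587, 281 and 204 CPM in non-cycling cells (log2 change -2.64 ± 0.25, edgeR adjusted p = 0.000108). Each mouse was lower in its cycling cells. Lef1 and Tcf7, the transcription factors of naive and memory T cells, fell by 1.68 and 1.51, the latter with adjusted p = 0.0439. Bcl2, which blocks mitochondrial cell death, fell by 1.87 ± 0.34 (adjusted p = 0.0122), from 272 ± 76.2 to 83.9 ± 65.6 CPM. Of 20 genes of growth cytokine receptors and their signalling 8 fell and 0 rose. Among the 8 were the receptor genes Il6ra (-2.58), Il4ra (-1.41) and the shared gamma chain Il2rg (-0.61), and the signalling genes Stat3, Jak1 and Stat5b. Of 19 survival genes 6 fell, Mcl1 by 0.85 among them, and 2 rose, Bak1, a promoter of mitochondrial cell death, by 0.72 among them. These lists share genes, Il7r and Bcl2 among them. At matched depth 8 of 17 stem-like and memory genes fell (median -1.08), Il7r by -1.26 (edgeR adjusted p = 0.0144) and Lef1 by -1.02. Of 17 genes of cytokine receptors and their signalling 5 fell. Tcf7 (adjusted p = 0.0528), Bcl2 (0.0912), Il2rg (0.0819) and Bak1 (0.130) were not called there.

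Effector genes did not move as a block. Of 19 cytotoxic genes 3 rose and 3 fell. Gzma, which encodes granzyme A, was at 1157, 1381, 3437 and 4972 CPM in cycling and at 495, 560, 761 and 1420 CPM in non-cycling CD8 T cells, higher in each of the 4 mice (log2 change 1.63 ± 0.15, edgeR adjusted p = 1.79e-06). The granzyme inhibitor gene Serpinb9 rose by 0.82, Ctsw fell by 0.67 and the perforin gene Prf1 fell by 0.75. Gzmb was not called (0.64 ± 0.54, adjusted p = 0.502). Of 22 genes of inhibitory receptors and exhaustion 5 fell and 0 rose, including the receptor gene Tigit (-0.77), Nr4a3 (-0.85), Rgs16 (-0.69) and Cd101 (-1.94). Of 12 effector cytokine genes 3 fell, Il2 (-2.71) and Ltb (-1.08) among them, and of 23 genes of receptor signalling and costimulation 9 fell, with Cd3d (-0.59), Cd3e (-0.52) and Cd69 (-1.01) among them. At matched depth Gzma rose by 1.3 (edgeR adjusted p = 1.09e-05). The inhibitory receptor and exhaustion list there had 1 gene up and 3 down of 19, with a median of -0.006. The cytotoxic list had 1 up and 3 down of 19, the effector cytokine list 0 up and 2 down of 10, and the signalling list 2 up and 2 down of 21. Tigit (adjusted p = 0.785), Serpinb9 (0.207), Prf1 (0.276), Cd3d (0.353), Cd3e (0.977) and Cd69 (0.0813) were not called. Cd101 and Il2 were not tested at that depth.

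Interferon and metabolic genes differed in direction. Of 20 type I interferon response genes 5 fell and 0 rose, Irf7 by 1.00 and Ifit1 by 1.53, and of 19 interferon gamma response genes 7 fell, the feedback inhibitor gene Socs1 by 1.45, and 1 rose, the immunoproteasome gene Psmb9 by 0.74. Of 17 glycolysis and hypoxia genes 7 rose and 0 fell. Ldha, Gapdh and Pkm, enzymes of glycolysis, rose by 0.95, 0.82 and 0.65. Of 21 genes of oxidative phosphorylation 11 rose, Cox5b by 0.86 and Ndufa4 by 0.78, and 1 fell, Uqcrh by 0.76. Of 14 DNA methylation genes 3 rose and 0 fell, among them Uhrf1, which is also on the G1/S list that comes with the gate. The rise of Dnmt1, which acts on newly copied DNA, may come with the gate as well. Dnmt1, which copies methylation onto new DNA, was at 209, 160, 174 and 158 CPM in cycling and at 37.3, 33.1, 29.3 and 38.6 CPM in non-cycling cells (log2 change 2.34 ± 0.15, adjusted p = 9.74e-09), and its partner Uhrf1 was at 114 ± 12.5 CPM against 6.51 ± 3.94. The repair glycosylase gene Tdg rose by 0.95. Of 18 trafficking genes 2 fell, the residence integrin Itgae by 1.88 among them, and Itgb1 rose by 0.55. Of 21 genes that respond to tissue digestion 12 fell and 0 rose, Dnajb1 by 2.00 and Junb by 1.25. Of 13 regulatory T cell genes 2 fell and 1 rose.

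**Figure D4:**
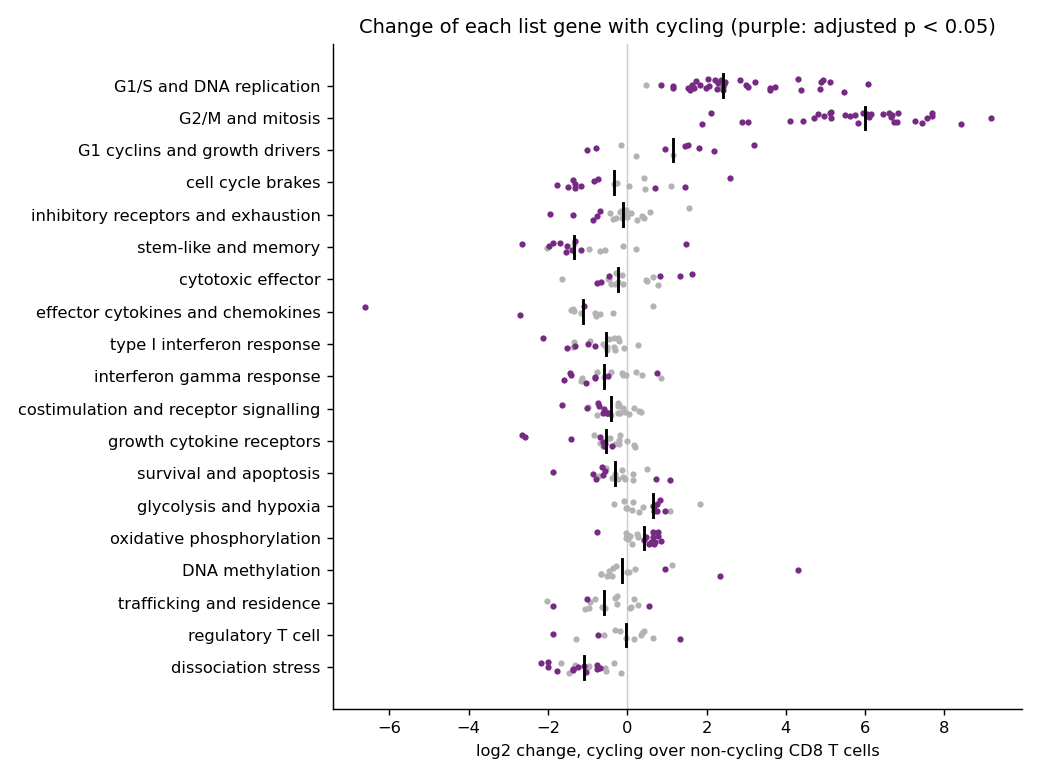
Log2 change of each gene of 19 lists between cycling and non-cycling CD8 T cells (x axis), with purple points at an edgeR adjusted p under 0.05, grey points above it and black bars at list medians. The 2 cell cycle lists at the top, which come with the gate, have medians of 2.42 and 5.99, and the stem-like and memory list has -1.34.

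Counts of metabolic and interferon genes were also lower at matched depth. There 0 of 14 glycolysis genes were called in either direction, with Ldha at 0.40 (edgeR adjusted p = 0.0746), Gapdh at 0.43 (0.0632) and Pkm at 0.07 (0.809), and of 21 oxidative phosphorylation genes 3 rose and 1 fell, Ndufa4 not among them (0.103). Type I interferon genes had 1 fall of 10, interferon gamma genes 1 rise and 1 fall of 15 with Socs1 not called (0.0932), and Itgae (0.435), Itgb1 (0.0543) and Tdg (0.152) were not called. Dnmt1 and Uhrf1 rose there by 2.30 and 2.88, and 9 of 20 digestion genes fell. Leaving out a single mouse ended the calls of Tcf7, Prf1, Ifit1, Cd69, Tdg, Cd101, Il2, Serpinb9, Bak1, Itgb1 and Cd3e, with adjusted p between 0.0505 and 0.186.

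The genotypes were then compared within the cycling T cells, with all lineages summed per mouse and 7187 genes tested by edgeR. Of these 4 were lower in knockout mice (0.0557% of those tested) and 0 were higher (0%), while 517 had an unadjusted p under 0.05 and DESeq2 called 1 higher and 8 lower. The median change over all genes was 0.00. Bcl2 is the called gene with reads in many cells of each mouse. It was at 27.0 and 28.1 CPM in knockout and 91.7 and 113 CPM in control mice, with UMIs in 11 of 42, 19 of 59, 25 of 60 and 44 of 91 cells. The knockout values lay apart from the controls, with a log2 change of -1.89 ± 0.26 (adjusted p = 0.0397). It passed in 13 of 16 alternatives, and its adjusted p was 0.0873 without the largest cycling clone of each mouse, 0.0873 without Scrublet doublets and 0.0758 with at least 4 gate UMIs.

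The other 3 called genes rested on few cells. Cd14, a receptor of macrophages and monocytes, was at 1.42 and 1.70 CPM against 70.6 and 125 CPM, with UMIs in 1, 2, 5 and 12 cells and 42 of the 47 UMIs of control mouse 1 in 1 cell. Its log2 change was -5.83 ± 0.52 (edgeR adjusted p = 0.00232). Ccl1, a chemokine gene, was at 2.85 and 0 CPM against 45.1 and 72.5 CPM (-5.60 ± 0.69, adjusted p = 0.0350), with 28 of 30 UMIs of control mouse 1 and 31 of 63 of control mouse 2 in 1 cell. Trav4-4-dv10, a receptor alpha segment, was at 0 and 0.850 CPM against 36.1 and 35.7 CPM (-5.74 ± 0.70, adjusted p = 0.0230, and 0.0741 without control mouse 2), in 2 cells of control mouse 1 and 1 cell of control mouse 2.

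RNA of other cell types was measured in the same sums. The summed level of 12 macrophage markers in the cycling T cells was 89.1, 28.7, 156 and 826 CPM, with 6, 6, 3 and 2 markers at 0 (Csf1r by the gate), and 7 neutrophil markers summed to 44.5, 6.56, 95.5 and 2276 CPM with Ly6g at 0 in all 4 mice. Control mouse 2 was the highest in both. Cd14 is itself on the macrophage list, and the other 11 markers summed to 87.7, 27.1, 86.7 and 703 CPM, so without it control mouse 1 lay between the knockout mice. The B cell markers summed to 160, 246, 175 and 119 CPM with Ms4a1 and Pax5 at 0, and the 8 T cell markers to 3137, 3272, 3612 and 3778 CPM. A UMI of a gene of another lineage was seen in 19.0, 20.3, 25 and 25.3% of cycling cells and in 11.3, 13.1, 11.5 and 17.4% of non-cycling T cells. Cycling cells were deeper, so a UMI of any gene is met more often in them. As a rate, the macrophage markers summed to 83.7, 47.2, 319 and 1151 CPM in non-cycling T cells. The neutrophil markers summed there to 737, 55.1, 1126 and 3293 CPM, and the B cell markers to 151, 168, 137 and 156 CPM. The part of such RNA in the Cd14 result was not tested, and in sums of cells a change in the mix of cells and a change per cell cannot be told apart.

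No cell cycle gene passed the test between genotypes. Of 34 G2/M genes 0 were called, 1 had an unadjusted p under 0.05, and 31 were lower in knockout mice, with a median of -0.18. Of 36 G1/S genes 0 were called, 1 had an unadjusted p under 0.05, and 22 were higher, with a median of 0.06. Summed, the G2/M list was at 5981 and 5141 CPM in knockout and 6255 and 6445 CPM in control mice (exact permutation p = 0.33), and the G1/S list at 4160 and 5009 against 4653 and 4596 CPM. The G1/S sum divided by the G2/M sum was 0.696, 0.974, 0.744 and 0.713. Knockout mouse 2 thus had the highest ratio, and knockout mouse 1 the lowest.

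Several genes came close to the threshold. Il7r was at 161 and 132 CPM in knockout and 51.1 and 57.5 CPM in control mice (1.41 ± 0.23, edgeR adjusted p = 0.0609). Cmah, a sialic acid enzyme, was at 58.4 and 59.5 against 16.5 and 11.5 CPM (2.09 ± 0.33, adjusted p = 0.0574). The histone gene H4c14 was at 47.0 and 66.3 against 10.5 and 12.7 CPM. On the other side were Rgs16, a regulator of G protein signalling, at 42.7 and 70.6 against 138 and 214 CPM, G0s2 at 2.85 and 0 against 39.1 and 78.3 CPM, and the receptor segment Trbv13-3 at 61.2 and 23.0 against 218 and 282 CPM. Trbv13-3 is the segment of control mouse 2 clone 2 and also of knockout mouse 1 clone 1. The part of single clones in its level was not tested. None of the genes named here overlapped between genotypes and none passed the adjusted threshold.

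Named lists gave few calls here as well. Of 16 stem-like and memory genes 14 had higher values in knockout mice, with a median of 0.88, while the 1 call was the fall of Bcl2. Tcf7 was at 134 and 68.0 against 33.1 and 32.2 CPM (adjusted p = 0.262). Of 18 cytotoxic genes 0 were called, with a median of -0.48. Gzma was at 867 and 547 CPM against 1785 and 3058 CPM (-1.78 ± 0.39, adjusted p = 0.486) and Gzmk at 38.4 and 17.9 against 129 and 291 CPM (-2.98 ± 0.59, adjusted p = 0.375). Of 22 inhibitory receptor and exhaustion genes 0 were called, with a median of -0.43, and Pdcd1, which encodes PD-1, was at 79.7 and 177 against 203 and 379 CPM (adjusted p = 0.756). Of 11 type I interferon genes 0 were called, with a median of 0.73. At unadjusted p under 0.05 the numbers were 10, 6, 8 and 5 genes of these 4 lists.

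The number of called genes in this comparison was higher whichever mouse was left out. It was 243 without knockout mouse 1, 363 without knockout mouse 2, 32 without control mouse 1 and 21 without control mouse 2, where the lone mouse of a genotype is assumed to vary like the other pair.

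The last comparison asked whether a genotype difference was of another size in cycling than in non-cycling CD8 T cells of the same mice. Of 9063 genes 22 were called (0.243%): 12 had a more positive knockout difference in cycling cells (0.132%) and 10 a more negative one (0.11%), by the interaction term in edgeR, with a median of 0.01. Bcl2 was at 30.4 and 25.7 CPM in cycling and 206 and 212 CPM in non-cycling CD8 T cells of knockout mice, and at 154 and 125 against 362 and 308 CPM in control mice. It was lower in cycling cells of every mouse, and the step down was larger in knockout mice by 1.61 ± 0.30 on the log2 scale (adjusted p = 0.0240, and 0.0970 without control mouse 1). For Ccl5, a chemokine of memory and effector CD8 T cells, the cycling and non-cycling values were 4301 and 13868, 2074 and 11470, 4158 and 5634, and 5463 and 9723 CPM, with an interaction of -1.44 ± 0.28 (adjusted p = 0.0330, 0.326 without knockout mouse 2 and 0.315 without control mouse 1). Klf6 was at 207 and 111 against 689 and 715 CPM in knockout and at 366 and 248 against 569 and 386 CPM in control mice (-1.51 ± 0.27, adjusted p = 0.0240, and 0.0970 without control mouse 1). Nr4a2, an immediate early gene of receptor signalling, was lower in cycling cells of knockout mice (234 and 314 against 538 and 489 CPM) and at 494 and 352 against 308 and 346 CPM in controls (-1.29 ± 0.26, adjusted p = 0.0495, and 0.543 without control mouse 1). Without cells that held UMIs of another lineage Bcl2 (0.379), Ccl5 (0.846) and Nr4a2 (0.572) were not called.

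The tubulin gene Tubb4b was at 589 and 602 against 214 and 224 CPM in knockout and at 776 and 627 against 111 and 73.7 CPM in control mice, with a smaller step up in knockout mice (-1.50 ± 0.22, adjusted p = 0.00329). Tcf7 (1.14 ± 0.53, adjusted p = 0.785), Il7r (1.00 ± 0.41, 0.690), Pdcd1 (-0.77 ± 0.27, 0.543), Gzma (-0.73 ± 0.23, 0.424) and Gzmb (-1.67 ± 0.43, 0.486) were not called. Without the clone with most cycling cells in each mouse Bcl2 (adjusted p = 0.186), Ccl5 (0.0905), Klf6 (0.228) and Nr4a2 (0.669) were not called, while Tubb4b passed in 14 of 15 alternatives. The number of calls was 141 without knockout mouse 1, 86 without knockout mouse 2, 29 without control mouse 1 and 40 without control mouse 2.

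**Figure D5:**
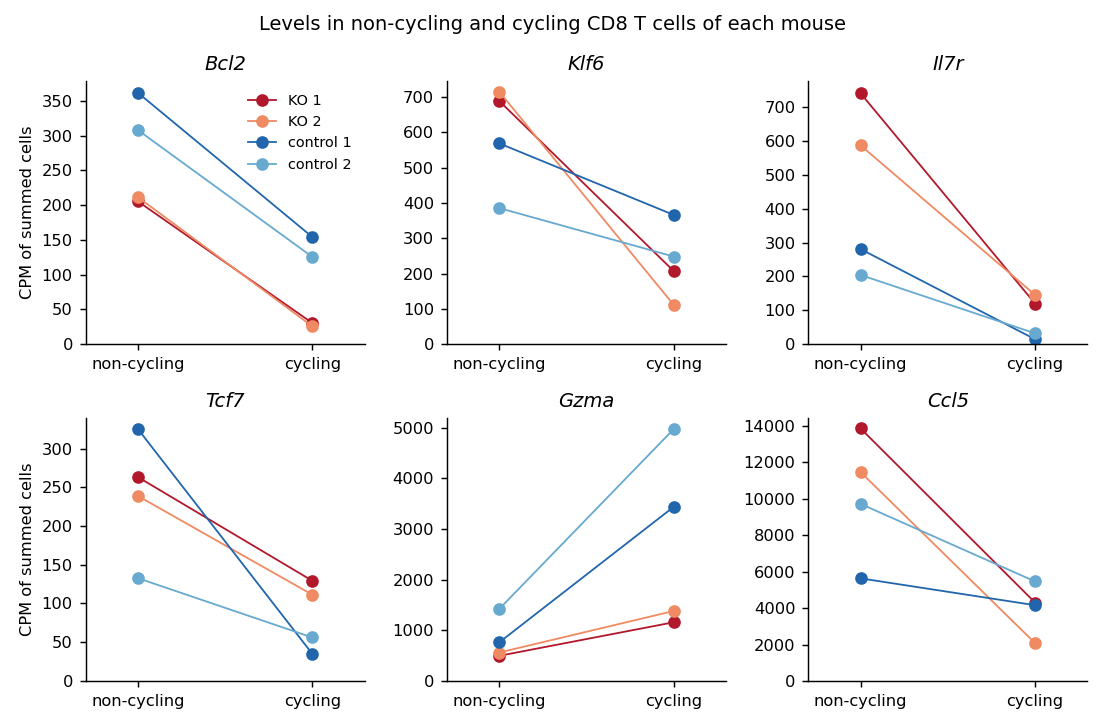
Level (y axis, CPM of the summed cells, from 0) of 6 genes in non-cycling and cycling CD8 T cells, with a line for each of the 4 mice (KO, knockout). Bcl2 ends at 30.4 and 25.7 CPM in knockout and 154 and 125 CPM in control mice, and Gzma rises in all 4 mice.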

How the data were processed

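UMI counts per gene and cell came from the deposited filtered matrices, which are raw counts made with Cell Ranger 8.0.1, per the file headers, and TRB chains came from the deposited contig tables, whose read and UMI numbers are counts as well. GRCm39, Seurat 5.0.1 and R 4.4.1 are named in the submitters' processing notes, and annotation release and cell-calling settings were not given in the sources used here. Contig tables join cells by barcode within a mouse. Counts were summed per mouse over cycling cells (Mki67 and Top2a) and non-cycling cells (neither), and genes were tested with edgeR 4.0.16 in R 4.3.3 (quasi-likelihood, filterByExpr, TMM, Benjamini-Hochberg threshold 0.05 over all genes tested), with DESeq2 1.42.0 as an alternative. Shares were tested over mice with exact two-sided permutation tests (scipy 1.17.1). CPM are TMM-scaled in gene tests, and unscaled in list sums. Doublets were marked with Scrublet in scanpy 1.11.5 and kept. Thinned shares are expected values at 2000 or 4000 UMIs, leaving out shallower cells. Cells were 1 clone where their main productive TRB chain (most UMIs) had an equal V segment, J segment and CDR3 nucleotide sequence. Levels are per UMI and not per transcript length, so genes are not ranked against each other.

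Genes named were, per test, the 10 largest changes each way among called genes with no overlap and a mean of at least 20 CPM, called members of lists (at most 4 per list), a fixed set, and, with fewer than 5 calls, the 10 smallest unadjusted p; of these, a selection is printed, and some results are not reported here. Clones named were chosen among the 3 with most cycling cells per mouse. The members, the 19 pathway and 15 marker lists and the tests were chosen with earlier results of these data known. In all 102 alternatives were planned and 9 added after seeing the data. Genotype fits within CD8 and CD4 cells needed 20 cycling cells in every mouse and were not made as planned. The interaction and the cycling against non-cycling test in CD8 T cells had no such minimum. Both used the sum of the 18 cycling CD8 T cells of knockout mouse 2. In simulated data with 200 changed genes, 4-fold changes were recovered in 89% of cases for knockout against control, 85% for cycling against non-cycling and 46% for the interaction, and 2-fold changes in 13, 58 and 11%.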

Additional observations from a re-analysis of the deposited data

Results flagged for a closer look

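Each gene below had a change with cycling in CD8 T cells that differed between knockout and control mice, by the interaction term of the edgeR test over 9063 genes. The values are differences of log2 changes, positive where the knockout change was the more positive. Among genes of the T cell surface and its signalling, the values were 4.04 for the costimulatory receptor gene Tnfrsf4 (OX40), 2.16 for Tnfrsf9 (4-1BB) and 2.92 for the tetraspanin gene Cd9. Further positive values were 4.45 for Nrgn, 1.74 for the transcription factor gene Irf8, 1.73 for Gm2a, 1.59 for Cdk8, 1.38 for Gm2682 and 1.34 for Pglyrp1. Negative values were -5.62 for the receptor segment Trbv20, -3.36 for the repressor gene Hic1, -2.72 for the gamma chain constant gene Trgc2, -1.61 for Bcl2, -1.51 for Klf6, -1.50 for Tubb4b, -1.48 for the tubulin gene Tuba1c, -1.44 for Ccl5 and -1.29 for Nr4a2.

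Several of these rest on few cells. In cycling CD8 T cells of knockout mouse 2, Tnfrsf4 had 33 of its 52 UMIs in 1 cell and Nrgn 22 of 33, and in knockout mouse 1 Cdk8 had 1054 of 1524 UMIs in 1 cell. Trbv20 is the segment of control mouse 1 clone 1, and its 93 UMIs in control mouse 1 came from 7 cells. Bcl2 had UMIs in 8 of 28, 6 of 18, 18 of 29 and 23 of 38 cycling CD8 T cells of knockout mouse 1, knockout mouse 2, control mouse 1 and control mouse 2, with at most 8 in a cell. The part of single cells in these differences was not tested.

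Most of these calls were lost under some alternative. Without knockout mouse 2 Tnfrsf4 was at 2.31 (edgeR adjusted p = 0.853) and Ccl5 at -1.06 (0.326). Without control mouse 1 the adjusted p was 0.230 for Cd9, 0.303 for Irf8, 0.157 for Gm2a, 0.0755 for Cdk8, 0.543 for Nr4a2, 0.315 for Ccl5 and 0.0970 for each of Gm2682, Hic1, Bcl2 and Klf6. Without control mouse 2 it was 0.0892 for Gm2a, 0.339 for Pglyrp1 and 0.0940 for Tuba1c. Trgc2 was not called with DESeq2 (0.184) or without the clone with most cycling cells in each mouse (0.105). Nrgn (0.0729) and Trbv20 (0.897) were not called over all T cells, and Trbv20 was at -11.2 without knockout mouse 1, a fitted value against 0 UMIs in knockout mouse 2. Tnfrsf9 and Tubb4b each passed in 14 of 15 alternatives.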

How the results depend on the processing

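Among values recomputed for the main results under alternatives, 93 were labelled the same, 21 gene counts moved and 1 difference reversed. Differences of shares and of clone numbers were labelled by their sign alone, whatever their size. Counts of called genes were labelled by whether they stayed within 1.5 times, whatever the direction of the genes. For knockout against control in cycling T cells (4 genes), the count was 162 with no filter on low counts, 9 with DESeq2, 0 with at least 4 gate UMIs, 12 without cells of mixed lineage, 0 without Scrublet doublets, 7 in CD8 T cells alone, 12 without cells of both lineages or 2 TRB chains (the last pair added after seeing the data) and 21 to 363 when a mouse was left out. For cycling against non-cycling CD8 T cells (2292 genes) it was 1072 at matched depth, 3641 over all T cells and 1710 to 1889 when a mouse was left out. For the interaction (22 genes) it was 79 with no filter, 9 with DESeq2, 14 without the largest cycling clone and 29 to 141 when a mouse was left out. The difference in expected clones, 4.24, was -0.849 without control replicate 2 and reached 9.34 without control replicate 1. The Tet2 change in cycling cells, -0.16, was 0.087 without knockout replicate 2, 0.024 without control replicate 2 and -0.39 without knockout replicate 1. The cause of these moves was not tested.

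Replicate numbers did not pair the mice: deviations of same-numbered mice had a correlation of -0.06 over 7187 genes, with 2 pairs. With the replicate block the genotype comparison called 35 genes, 18 higher and 17 lower, and the interaction with the replicate block in place of the mouse block called 0. Planned genotype fits in CD8 T cells and in CD4 T cells alone were not run as planned, because knockout mouse 2 had 18 cycling CD8 cells and knockout mouse 1 had 7 cycling CD4 cells. With 2 mice a genotype no share can reach p under 0.33, and the shallowest sums, 680454 UMIs over all cycling T cells and 324140 over cycling CD8 T cells, limit what low genes can show.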

Other observations

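Further gene groups of the cycling T cells showed no call between genotypes by edgeR. Of 21 oxidative phosphorylation genes 17 had lower values in knockout mice (median -0.20, 1 at an unadjusted p under 0.05), of 17 glycolysis and hypoxia genes 13 had higher values (median 0.19, 1 under 0.05), and of 20 genes that respond to tissue digestion 16 had higher values (median 0.27, 3 under 0.05). Of 14 regulatory T cell genes 11 had lower values, with a median of -0.40 and 2 under 0.05. Medians of the other lists without a call lay between -0.18 and 0.17: the G1 cyclins at -0.11, cell cycle brakes at 0.11, effector cytokines at -0.18, interferon gamma genes at 0.06, signalling genes at -0.08, cytokine receptors at 0.17, DNA methylation genes at 0.06 and trafficking genes at -0.13. The brake gene Cdkn1a, a target of p53, was at 69.8 and 71.4 CPM in knockout and 99.2 and 137 CPM in control mice (adjusted p = 0.470), and Slamf6 at 68.3 and 111 against 58.6 and 56.4 CPM (adjusted p = 0.620).

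Further marker lists were also summed in the cycling cells, in the order knockout mouse 1, knockout mouse 2, control mouse 1, control mouse 2. Natural killer cell markers were at 512, 348, 170.5 and 498 CPM, and gamma-delta T cell markers at 12.5, 4.10, 7.35 and 5.64 CPM. The 8 dendritic cell markers were at 580, 509, 247 and 114 CPM, with 1, 2, 5 and 6 of them at 0. In control mouse 2 that sum came from Bst2 and Ccr7 alone. Non-cycling T cells held 647, 654, 670 and 332 CPM of the same 8 markers. The source of this RNA was not tested. In control mouse 2 the neutrophil genes S100a8 and S100a9 reached 1029 and 1272 CPM.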
